A study of Mus musculus with 16 samples.

Results

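Genes that carry the sympathetic signal from noradrenaline synthesis to cAMP, 9 in all, were followed in the mouse heart apex after loss of AKT1, AKT2 or both in cardiomyocytes. They were Th and Dbh, 2 enzymes of noradrenaline synthesis, the adrenergic receptors Adra1a, Adra1b and Adrb1, and the adenylate cyclases Adcy1, Adcy5, Adcy6 and Adcy9. Every array probe whose RefSeq accession maps to 1 of these genes was taken, which gave 14 probes for 9 genes of the 22911 gene symbols on the array. All 9 genes passed the filter on dim probes through 11 of those probes and were among 13725 genes tested. Members were chosen by gene function, but with earlier results of these data known, so the choice was not blind to the measured values.

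The samples were 16 male C57Bl/6 mice, 1 array each, in 4 groups of 4. Mice labelled AKT1 KO carried heterozygous MHC-mercremer, a tamoxifen-activated Cre under the αMHC promoter of cardiomyocytes, and homozygous floxed AKT1 with loxP sites around exons 6 and 7. Mice labelled AKT2 KO carried the same Cre and homozygous floxed AKT2, in which exons 5 and 6 are flanked, and those labelled AKT1+AKT2 DKO (double knockout, DKO) carried both floxed genes. Control mice carried heterozygous MHC-mercremer and no floxed allele, so Cre and hydroxytamoxifen were common to all 16 animals. Each mouse was given 500 µg of hydroxytamoxifen daily on 5 days at an age of 3 months, and RNA was taken 21 days after induction; the word "untreated" in the sample titles does not refer to this induction. Only cardiomyocytes carry the deletion, whereas the RNA came from all cells of the apex. In such bulk RNA, fewer cells of a type and less RNA per cell cannot be told apart.

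In the heart, sympathetic nerve fibres release noradrenaline, which tyrosine hydroxylase (Th) and dopamine beta-hydroxylase (Dbh) help to make. Beta receptors act through the stimulatory G protein on adenylate cyclases, which make cAMP and so switch on protein kinase A, while alpha-1 receptors act through Gq on phospholipase C. Adcy5 and Adcy6 are regarded as the main cyclases of cardiomyocytes, and Adcy1 is a cyclase that calcium and calmodulin stimulate.

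Levels below are on a log2 scale on which 0 is the 75th percentile of intensity on the same array. They compare arrays for 1 probe and give no order between genes. A difference was called at an adjusted p below 0.05 in limma, with Benjamini-Hochberg adjustment over 13725 genes. The 75th percentile was 492.1 to 809.4 and 43.1% to 54% of probes lay well above background on an array. On the first principal component of all genes, DKO replicate 3 lay at 78.6 and the other DKO arrays at 42.5 to 47.8, so values without it are given where a member's call or a list's count differs. Each group lay in 1 column of the 2 slides, so array column and group cannot be told apart. Akt2 was at 4.83 to 4.98 in controls, 2.43 to 2.64 in AKT2 KO hearts and 2.82 to 3.04 in DKO hearts. The level of Akt1 was 4.86 to 5.43 in AKT1 KO and 5.09 to 5.17 in control hearts; where its probes lie against the floxed exons is not known here, so they do not check that label.

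The 250 bases before the RefSeq start sites of Th, Dbh and Adcy1 (GRCm38.p6) are shown because these genes stand at the 2 ends of the chain and fell in DKO hearts. Capitals mark matches, on either strand, to the cAMP response element TGACGTCA or its core TGACG, a motif bound by CREB-family factors, and to the E-box CACGTG. Th, chr7:142899996-142900245, minus strand, is followed by Dbh, chr2:27165257-27165506, plus strand, and Adcy1, chr11:7063183-7063432, plus strand.
Th: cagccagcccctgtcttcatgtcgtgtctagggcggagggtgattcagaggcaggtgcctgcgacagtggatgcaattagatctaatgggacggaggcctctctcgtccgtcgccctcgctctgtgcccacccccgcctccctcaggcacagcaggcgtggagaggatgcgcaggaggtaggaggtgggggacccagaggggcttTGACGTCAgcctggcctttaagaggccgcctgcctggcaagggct
Dbh: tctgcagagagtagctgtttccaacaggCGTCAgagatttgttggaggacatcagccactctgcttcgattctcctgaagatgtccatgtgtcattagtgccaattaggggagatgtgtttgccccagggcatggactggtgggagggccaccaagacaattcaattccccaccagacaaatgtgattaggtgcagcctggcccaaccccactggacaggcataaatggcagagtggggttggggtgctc
Adcy1: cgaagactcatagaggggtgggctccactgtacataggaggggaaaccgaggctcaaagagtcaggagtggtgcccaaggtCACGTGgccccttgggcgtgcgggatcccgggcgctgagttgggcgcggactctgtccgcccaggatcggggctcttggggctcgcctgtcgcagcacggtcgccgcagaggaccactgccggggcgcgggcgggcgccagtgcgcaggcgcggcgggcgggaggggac
The Th window held the whole element 45 to 38 bases before the start, a match found in 1.55% of 32851 windows of this length; it contains the core on both strands. The Dbh window held the core on the other strand (CGTCA), 222 to 218 bases before the start, and 17.8% of windows held the core on 1 strand or the other. Neither motif was in the Adcy1 window, which held the E-box at 169 to 164 bases before the start, as did 6.02% of windows. Windows were found for 7 of the 9 genes, and those of Adrb1 and Adcy9 also held the core. Such a match describes letters and is not a site.

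In DKO hearts, 6 of the 9 genes were lower than in controls and none was higher. Over all genes tested, 45.6% were called in this comparison and 21.2% were called lower. The members' median difference was -0.51 and that of all genes 0.02. For 7 of 9 members, the 6 called and Adcy5, all 4 DKO arrays lay below all 4 controls, as they did for 20.6% of all genes. In AKT1 KO hearts 0 of 9 were called by limma against control, where 0.794% of all genes were called and 0.379% were called lower; 1 member had an unadjusted p under 0.05. In AKT2 KO hearts 0 of 9 were called as well, where 0.131% of all genes were called and 0.0583% were called lower (44.4% of the calls, or 56.5% with quantile normalization); 2 members had an unadjusted p under 0.05. All 4 arrays lay below all controls for 1 of 9 members in AKT1 KO hearts (6.29% of all genes) and for 2 of 9 in AKT2 KO hearts (5.11%). The plot of differences from control shows both enzymes, the 3 receptors and Adcy1 on the lower side in DKO hearts.

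**Figure D1:**
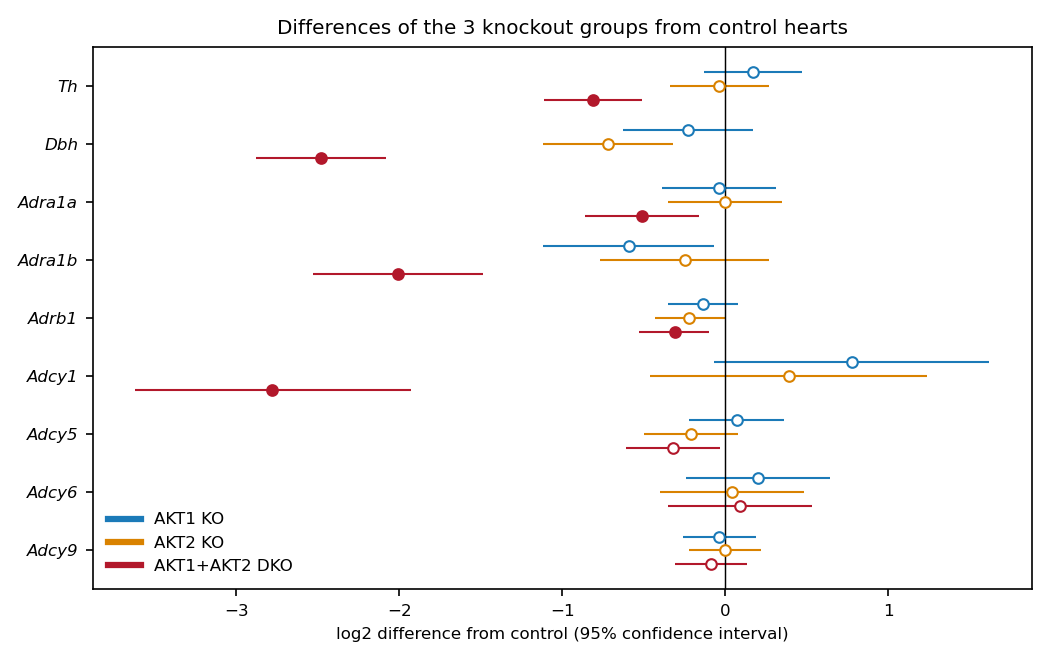
Log2 difference of each knockout group from control (x axis) for the 9 genes (y axis), with its 95% confidence interval; filled points passed an adjusted p of 0.05 in limma and open points did not. Every filled point belongs to the DKO group, from -2.78 for Adcy1 to -0.31 for Adrb1.

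Of the enzymes, Dbh, which turns dopamine into noradrenaline, changed most. Its gene lies at chr2:27165507-27183204. Levels were 1.48, 1.63, 1.55 and 1.70 in control hearts, 1.05, 1.49, 1.60 and 1.29 in AKT1 KO, 1.43, 0.64, 0.53 and 0.86 in AKT2 KO, and -0.95, -1.02, -1.12 and -0.46 in DKO hearts. All 4 DKO arrays lay below all other arrays, and all 4 AKT2 KO arrays lay below all control arrays. Dbh was 5.57-fold lower in DKO hearts than in controls (95% interval 4.22 to 7.35, limma adjusted p = 2.06e-07), with log2 differences of -2.54 on slide 1 and -2.42 on slide 2. Against AKT1 KO it was 4.75-fold lower and against AKT2 KO 3.38-fold lower, both called. By size of fall in DKO hearts it was number 60 of the 13725 genes. The order of means was control, AKT1 KO, AKT2 KO and DKO, and only the last neighbours differed past the threshold. In AKT2 KO hearts Dbh was 0.72 below control on the log2 scale and was not called (adjusted p = 0.414; -0.52 on slide 1 and -0.93 on slide 2), but without AKT2 KO replicate 1, the highest of its group, the difference was -0.91 and was called (adjusted p = 0.0462).

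Th makes the precursor of dopamine, the rate-limiting step of noradrenaline synthesis, and lies at chr7:142892779-142899995, 115 Mb from Akt2 on the same chromosome. Its levels were -0.29, -0.39, -0.21 and -0.23 in control hearts, -0.49, -0.20, 0.25 and 0.01 in AKT1 KO, -0.22, -0.50, -0.23 and -0.31 in AKT2 KO, and -1.0, -1.34, -1.17 and -0.85 in DKO hearts. The DKO arrays did not overlap any other group, whereas the other 3 groups overlapped each other. Th was 1.75-fold lower in DKO hearts than in controls (95% interval 1.42 to 2.16, limma adjusted p = 0.000315), by -0.83 on slide 1 and -0.79 on slide 2 on the log2 scale. It was also 1.98-fold lower than in AKT1 KO and 1.71-fold lower than in AKT2 KO hearts, both called. AKT1 KO hearts had the highest mean, then control and AKT2 KO, and none of these 3 differed past the threshold. For Th and Dbh alike the level rests on 1 probe, since the second probe of each was not well above background on any array.

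**Figure D2:**
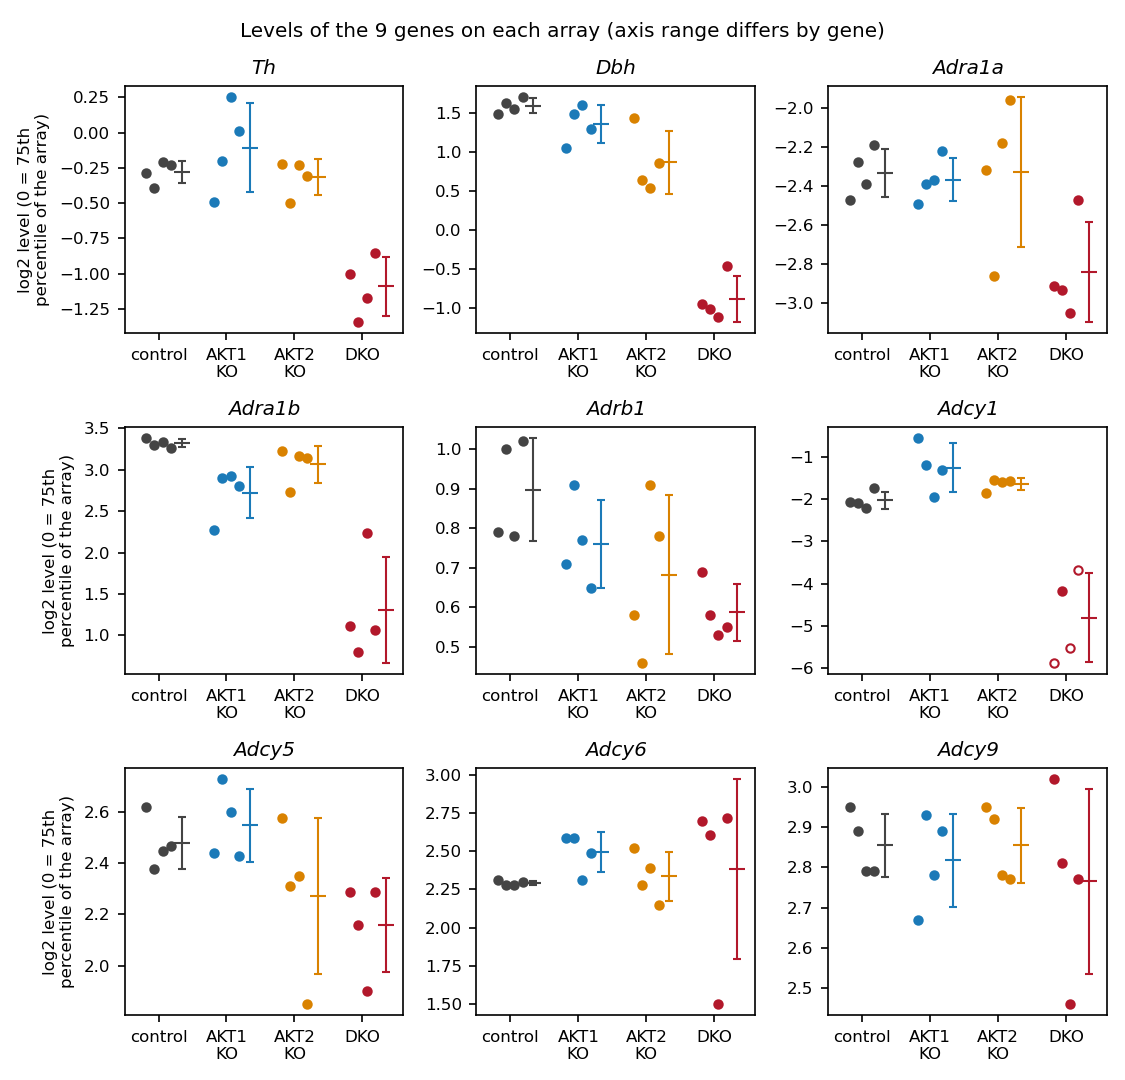
Log2 level on each array (y axis, 0 is the array's 75th percentile, range set per gene) for the 4 groups (x axis); points are mice in replicate order, open points are not well above background, and the bars beside them are the mean and SD of 4. Dbh, Th, Adra1b and Adcy1 have DKO points below all others, and Adcy6 has 1 DKO point at 1.50 below the rest of its group.

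Among receptors, Adra1b, the alpha-1B receptor (chr11:43774605-43901250), changed most. Its levels were 3.38, 3.30, 3.34 and 3.26 in control hearts, 2.27, 2.90, 2.92 and 2.80 in AKT1 KO, 3.23, 2.73, 3.16 and 3.14 in AKT2 KO, and 1.12, 0.80, 2.24 and 1.07 in DKO hearts. All 12 knockout arrays lay below all controls, and DKO replicate 3 stood just under the lowest AKT1 KO array. Adra1b was 4.03-fold lower in DKO hearts than in controls (95% interval 2.81 to 5.79, limma adjusted p = 1.56e-05), by -2.38 on slide 1 and -1.64 on slide 2, and by -2.32 without DKO replicate 3. It was 2.67-fold lower than in AKT1 KO and 3.38-fold lower than in AKT2 KO hearts, both called; against AKT1 KO the call was lost on slide 2 alone (-0.88, adjusted p = 0.133). In AKT1 KO hearts Adra1b was 0.59 below control and was not called (adjusted p = 0.545), although all 4 arrays lay below all controls; without DKO replicate 3 that difference was called (adjusted p = 0.047). The order of means was control, AKT2 KO, AKT1 KO and DKO, and only AKT1 KO and DKO, as neighbours, differed past the threshold.

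Adra1a, the alpha-1A receptor (chr14:66635251-66771240), had levels of -2.47, -2.28, -2.39 and -2.19 in control hearts and -2.91, -2.93, -3.05 and -2.47 in DKO hearts. In AKT1 KO hearts they were -2.49, -2.39, -2.37 and -2.22, and in AKT2 KO hearts -2.32, -2.86, -2.18 and -1.96. DKO replicate 4 came within rounding of the lowest control array, and the AKT2 KO and DKO ranges overlapped. Adra1a was 1.42-fold lower in DKO than in control hearts (95% interval 1.12 to 1.81, limma adjusted p = 0.0204; -0.54 on slide 1 and -0.47 on slide 2). That call ended with normexp background correction (-0.28, adjusted p = 0.0958), with quantile normalization (0.0534), with the authors' deposited values (0.0557), on slide 2 alone and without control replicate 4 (0.059). Against AKT1 KO it was 0.47 lower (adjusted p = 0.0292) and against AKT2 KO 0.51 lower (0.0214) on the log2 scale, calls that ended in 11 and 9 of 29 alternatives. AKT2 KO, control and AKT1 KO means lay within 0.04 of each other, with DKO below. Its level too rests on 1 of 2 probes, the other being below background throughout.

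Adrb1, the main beta receptor of cardiomyocytes (chr19:56722117-56725150), had levels of 0.79, 1.0, 0.78 and 1.02 in control hearts, 0.71, 0.91, 0.77 and 0.65 in AKT1 KO, 0.58, 0.46, 0.91 and 0.78 in AKT2 KO, and 0.69, 0.58, 0.53 and 0.55 in DKO hearts. The DKO arrays lay below all controls and inside the range of the AKT2 KO arrays. It was 1.24-fold lower in DKO hearts than in controls (95% interval 1.07 to 1.44, limma adjusted p = 0.0201; -0.26 on slide 1 and -0.36 on slide 2). Means ran in the order control, AKT1 KO, AKT2 KO and DKO, and no neighbours in it differed past the threshold. The call against control ended without control replicate 2 (0.0585) or 4 (0.0657) and on either slide alone. Against the single knockouts it was not called, with intervals of -0.39 to 0.04 for AKT1 KO and -0.31 to 0.12 for AKT2 KO.

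Of the cyclases, Adcy1 (chr11:7063433-7178506) changed most and was near background in DKO hearts. Its levels were -2.07, -2.09, -2.21 and -1.74 in control hearts, -0.56, -1.20, -1.95 and -1.30 in AKT1 KO, -1.85, -1.54, -1.59 and -1.56 in AKT2 KO, and -5.87, -4.17, -5.51 and -3.67 in DKO hearts, of which only the -4.17 was well above background. DKO arrays lay far below every other array, and both single knockouts had higher means than controls without being called (adjusted p = 0.742 and 1). Adcy1 was 6.86-fold lower in DKO hearts than in controls (95% interval 3.82 to 12.3, limma adjusted p = 6.19e-05; log2 differences of -2.94 on slide 1 and -2.62 on slide 2). With normexp correction, whose offset shrinks differences of dim probes, the log2 difference was -1.31 in place of -2.78 and was still called. The second kept probe of Adcy1 was not well above background on any DKO array. It gave at least 1.94-fold lower in DKO hearts than in controls, taking the DKO arrays at their lowest signal above background (means -3.18 and -6.19, adjusted p over all kept probes 0.000382). On this probe control replicate 4, at -3.06, was not well above background either, and the bound uses its measured value. By the brighter probe the order of means was AKT1 KO, AKT2 KO, control and DKO, and only control and DKO differed as neighbours. With 3 of 4 DKO arrays not above background, the size of the fall depends on how background is handled.

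Adcy5 (chr16:35154494-35305743) had levels of 2.62, 2.38, 2.45 and 2.47 in control hearts, 2.44, 2.73, 2.60 and 2.43 in AKT1 KO, 2.58, 2.31, 2.35 and 1.85 in AKT2 KO, and 2.29, 2.16, 1.90 and 2.29 in DKO hearts. All DKO arrays were below all control and AKT1 KO arrays and overlapped the AKT2 KO arrays. The difference from control was -0.32 (95% interval -0.61 to -0.03) and was not called (adjusted p = 0.0685); it was called with quantile normalization (0.0399), with the authors' deposited values (0.0456), with slide as a block (0.0423), with only these groups in the fit (0.0464) and without AKT2 KO replicate 4 (0.025). Against AKT1 KO Adcy5 was 1.31-fold lower and called (adjusted p = 0.0297), which ended without AKT1 KO replicate 2 (0.0851) or 3 (0.0629), without DKO replicate 2 (0.0534) or 3 (0.0738), with array weights (0.0514), with no filter on dim probes (0.0642) and on slide 2 alone (0.279). The order of means was AKT1 KO, control, AKT2 KO and DKO, with no neighbours past the threshold.

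Adcy6 (chr15:98589978-98610287) had levels of 2.31, 2.28, 2.28 and 2.30 in control hearts and 2.70, 2.61, 1.50 and 2.72 in DKO hearts, so that 3 DKO arrays were above and 1 was below all controls. AKT1 KO arrays were at 2.31 to 2.59 and AKT2 KO arrays at 2.15 to 2.52. In order of means, AKT1 KO, DKO, AKT2 KO and control, no neighbours differed past the threshold. The DKO difference from control was 0.09 (adjusted p = 0.747) with all arrays and 0.38 without DKO replicate 3, which was called as higher (limma adjusted p = 0.00225). Against AKT2 KO the DKO difference was not called with all arrays, and was called as higher without that array (0.34, adjusted p = 0.00519). With array weights Adcy6 was called as higher in DKO hearts against control (0.36, adjusted p = 0.00214) and against AKT2 KO (0.31, 0.00956). The second probe of Adcy6 gave a DKO difference from control of -0.01 (95% interval -0.46 to 0.45), and DKO replicate 3 was the lowest of its group there too, at -3.18 against -2.51 to -2.31.

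Adcy9 (chr16:4284886-4437236) was called in none of the 7 comparisons. Its arrays were at 2.79 to 2.95 in control, 2.67 to 2.93 in AKT1 KO, 2.77 to 2.95 in AKT2 KO and 2.46 to 3.02 in DKO hearts, with DKO replicate 3 at the lowest value. Means ran from AKT2 KO through control and AKT1 KO to DKO, with no neighbours past the threshold. The interval of its DKO difference from control was -0.31 to 0.13.

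Against AKT1 KO hearts, 6 of 9 members were lower in DKO hearts (Th, Dbh, Adra1a, Adra1b, Adcy1 and Adcy5), where 47% of all genes were called and 20.3% were called lower; for 5 of 9 all 4 DKO arrays lay below all AKT1 KO arrays, as for 14.8% of all genes. Without DKO replicate 3 this count was 4, with Adra1a (adjusted p = 0.0666) and Adcy5 no longer called. Against AKT2 KO hearts, 5 of 9 were lower (Th, Dbh, Adra1a, Adra1b and Adcy1), where 42.1% of all genes were called and 18.6% were called lower, and for 4 of 9 the arrays did not overlap, with DKO lower, as for 17.3% of all genes. Without DKO replicate 3 Adra1a was no longer called (0.0503) and Adcy6 was called as higher. Between the single knockouts 0 of 9 were called by limma (0.896% of all genes; 1 member, Dbh, had an unadjusted p under 0.05). These comparisons share arrays, so their counts are not independent.

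The departure from additivity is the DKO difference from control minus the sum of both single differences, on the log2 scale. It was called below 0 for 4 of 9 members, where 26% of all genes were called and 10.1% were called below 0; of the genes called, 39% were below 0, and 50.7% with quantile normalization. For Adcy1 the single differences summed to 1.17 and the DKO difference was -2.78, a departure of -3.95 (SE 0.56, limma adjusted p = 0.000221), or -2.16 with normexp correction. For Dbh the sum was -0.95 against -2.48, a departure of -1.53 (SE 0.265, adjusted p = 0.000965). For Adra1b the sum of -0.85 stood against -2.01 (departure -1.16, adjusted p = 0.0228), and for Th 0.14 stood against -0.81 (departure -0.95, adjusted p = 0.00326). Each DKO fall was thus larger than the single differences add up to. On slide 1 alone all 4 departures were called and on slide 2 alone 0 were, with values there of -4.06, -1.03, -0.73 and -0.72 in the same order. Each slide holds 2 arrays per group. Over all genes, calls for additivity ranged from 188 to 6154 over the alternatives, against 3566 in the main fit. The counts on 1 slide are therefore no result about the members. Adrb1 and Adcy9 lay within 0.05 of the sum, and Adra1a (-0.47), Adcy5 (-0.18) and Adcy6 (-0.15) were not called.

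**Figure D3:**
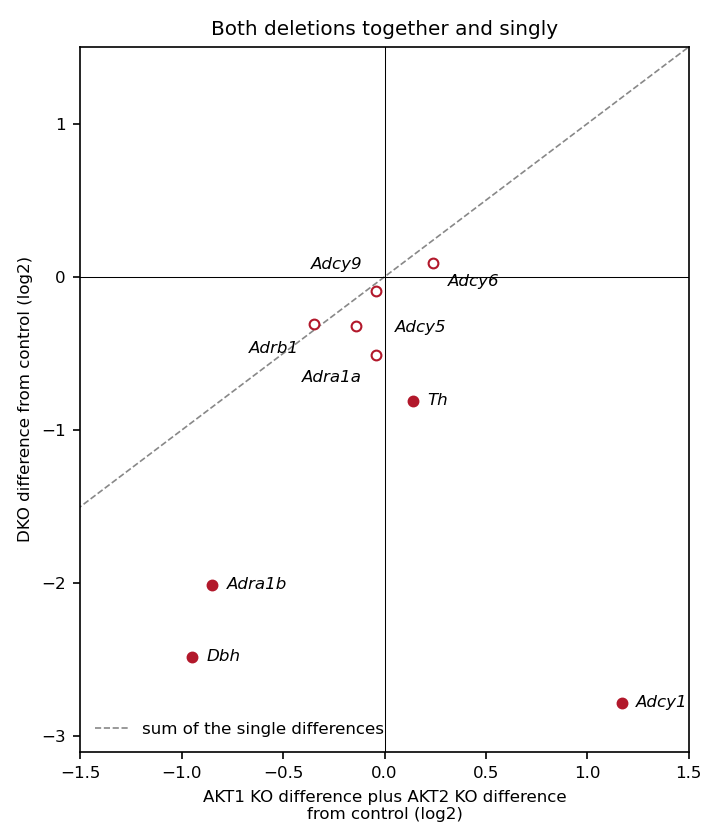
Sum of the AKT1 KO and AKT2 KO log2 differences from control (x axis) against the DKO log2 difference (y axis), 1 point per gene; filled points have a called departure from the dashed line of equality. Adcy1 lies farthest below the line, at 1.17 and -2.78 (its departure of -3.95 is -2.16 with normexp), and Adrb1 lies close to it.

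Over the 16 arrays, Dbh and Th had a Pearson r of 0.905, Dbh and Adra1b 0.852, and Dbh and Adcy1 0.848, whereas Adcy6 and Dbh had 0.0607. All these values share the same arrays, and the 4 DKO arrays stand apart in them. The genes most like Th by this r were Capn12 (0.977), C7 (0.976) and Spata31d1a (0.974), and those most like Dbh were Gdpd5 (0.974), Dlst (0.967) and Crybb1 (0.966). Most like Adra1b were Plin5 (0.979), which coats lipid droplets, Eci3 (0.978) and Etfdh (0.976), an electron carrier enzyme of fatty acid oxidation. Among those most like Adcy1 were Mrgprh (0.944) and Grip2 (0.942). Those of Adra1a were Mtg1 (0.912), Lcn6 (0.911) and Tmem80 (0.883), and those of Adrb1 Trim13 (0.869), Dusp23 (0.865) and Htatsf1 (0.812). Nearest to Adcy5 were Pip5k1b (0.917), Proca1 (0.841) and Tmem51 (0.811). Nearest to Adcy6 were Cep41 (0.963), Rubcn (0.938) and Atf6b (0.923), and nearest to Adcy9 Carm1 (0.901), Farsb (0.897) and Optn (0.889). These are descriptions, without a test.

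Further genes of the pathway were taken from 10 lists, which also hold the members described above, so the list counts include them. The counts below stand against 45.6% of all genes called in DKO hearts against control and 21.2% called lower, and list shares near these are no result about a list. In the list of noradrenaline synthesis, storage and removal, 3 of 10 tested genes fell in DKO hearts against control and 2 rose. Those that fell were the members Th and Dbh, already given above, and Slc22a3. Slc22a3, a transporter that takes up noradrenaline outside neurons, was 6.93-fold lower (limma adjusted p = 7.26e-08) and was above background on 2 of 4 DKO arrays; with normexp its log2 difference was -1.79 in place of -2.79. Maoa, which breaks noradrenaline down, was 2.2-fold higher (3.83e-05), a log2 difference of 1.13 that was 0.68 with normexp. Ddc, between Th and Dbh in the synthesis, gave -0.24 (adjusted p = 0.511), and the vesicular transporter Slc18a2 gave 0.12. The neuronal noradrenaline transporter Slc6a2 was not well above background on any array. In AKT1 KO and AKT2 KO hearts no gene of this list was called, and Slc22a3 gave -0.07 in each.

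Of 9 adrenergic receptors listed, 6 were tested and 4 fell in DKO hearts, the fourth being Adra1d at 1.73-fold (limma adjusted p = 0.00137; log2 difference -0.79, or -0.50 with normexp). Adra2b (0.06) and Adra2c (0.45) were not called. Adrb3 was above background on 8 of 16 arrays and failed the filter, and Adra2a was above it on 0. Of 10 adenylate cyclases, 6 were tested, and Adcy7 rose 2-fold in DKO hearts (1.99e-05) while Adcy1 fell; without DKO replicate 3, 2 rose. Adcy4 gave -0.42 (0.193). Adcy2 and Adcy8 were above background on 0 arrays, Adcy10 on 2 and Adcy3 on 5.

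Of 12 G protein genes, 5 rose in DKO hearts and 0 fell. Gnai1 and Gnai3, inhibitory alpha subunits, rose by 0.72 and 0.39 on the log2 scale, Gng12 by 0.62 and Gnb1 by 0.34. On slide 1 alone Gnai3 (0.22, adjusted p = 0.082) and Gnb1 (0.22, 0.0782) were not called. Gnas, the stimulatory alpha subunit that links Adrb1 to the cyclases, gave -0.06 (95% interval -0.25 to 0.13), and Gnaq, which alpha-1 receptors use, gave 0.07 (-0.07 to 0.21). Of 12 genes of receptor desensitisation, 3 rose and 2 fell, or 3 and 3 without DKO replicate 3. Grk5, a kinase that phosphorylates activated receptors, was 2.56-fold higher (limma adjusted p = 1.71e-06), at 0.38 to 0.54 in controls and 1.63 to 2.26 in DKO hearts. Rgs6, which speeds the shut-off of inhibitory G proteins, was 1.73-fold lower (7.96e-05). Grk4 (0.61, adjusted p = 0.0335) and Rgs2 (-0.46, 0.0289) were called but lost the call with normexp and when single arrays were left out. Grk2, the beta receptor kinase, gave -0.17 (0.277). In AKT1 KO hearts Grk3 was the 1 listed gene called in either single knockout (0.75), and it lost the call without any 1 of the control arrays.

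Downstream of cAMP, 2 of 12 phosphodiesterases fell and 2 rose in DKO hearts, and 1 rose without DKO replicate 3. Pde4a and Pde4d, which degrade cAMP, were 2.25-fold (2.04e-05) and 1.69-fold (0.000251) lower, and Pde1a, a calmodulin-dependent enzyme, was 1.57-fold higher (6.21e-05). Pde3b was called at 0.36 (0.0403) and lost the call in 10 of 29 alternatives. Among these were normexp correction (0.0586), slide 1 alone (0.257), slide 2 alone (0.115) and leaving out DKO replicate 3 (0.0624). Of 17 genes for protein kinase A, Epac and anchoring proteins, 4 rose and 3 fell, and 7 rose without DKO replicate 3. Prkaca, the main catalytic subunit, was 1.56-fold lower (1.35e-05), Prkar1a, an inhibitory regulatory subunit, was 2.26-fold higher (2.39e-05), and the inhibitor Pkia was 1.7-fold lower (0.000162). Akap1, which anchors the kinase at mitochondria, was 2.04-fold lower (7.78e-06).

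Of 9 tested substrates of protein kinase A in the heart, 5 fell in DKO hearts and 0 rose; 4 fell without DKO replicate 3. Kcnq1, a repolarising potassium channel, was 2.17-fold lower, Ryr2, the calcium release channel, 1.87-fold, Pln, phospholamban, 1.74-fold and Tnni3, troponin I, 1.57-fold lower. With the authors' deposited values Tnni3 gave -0.37 in place of -0.65, and on slide 1 alone Pln gave -0.52 in place of -0.80, both called. Ryr2, Pln and Tnni3 are also in the list of ventricular cardiomyocyte markers below. Of 6 tested muscarinic, adenosine and related receptors 2 rose, Adora1 by 1.33 and Ptger4 by 0.65 on the log2 scale, and 3 rose without DKO replicate 3. The DKO arrays of Adora1 ranged from -0.64 to 1.81, and its difference was 0.76 without DKO replicate 3 (adjusted p = 0.000372), 0.88 with the mean of its kept probes and 0.67 on slide 1 alone. Its call was lost on slide 2 alone (2.00, 0.0563) and when the single knockouts were left out of the fit (0.0675). Of 10 tested cAMP-responsive transcripts 1 was called, Sik1 at 0.80 (0.0207), and without DKO replicate 3, 0 rose and 1 fell. The Sik1 call was lost in 6 of 29 alternatives. Its difference was 0.12 on slide 1 alone (adjusted p = 0.42) and 0.44 with array weights (0.0946).

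**Figure D4:**
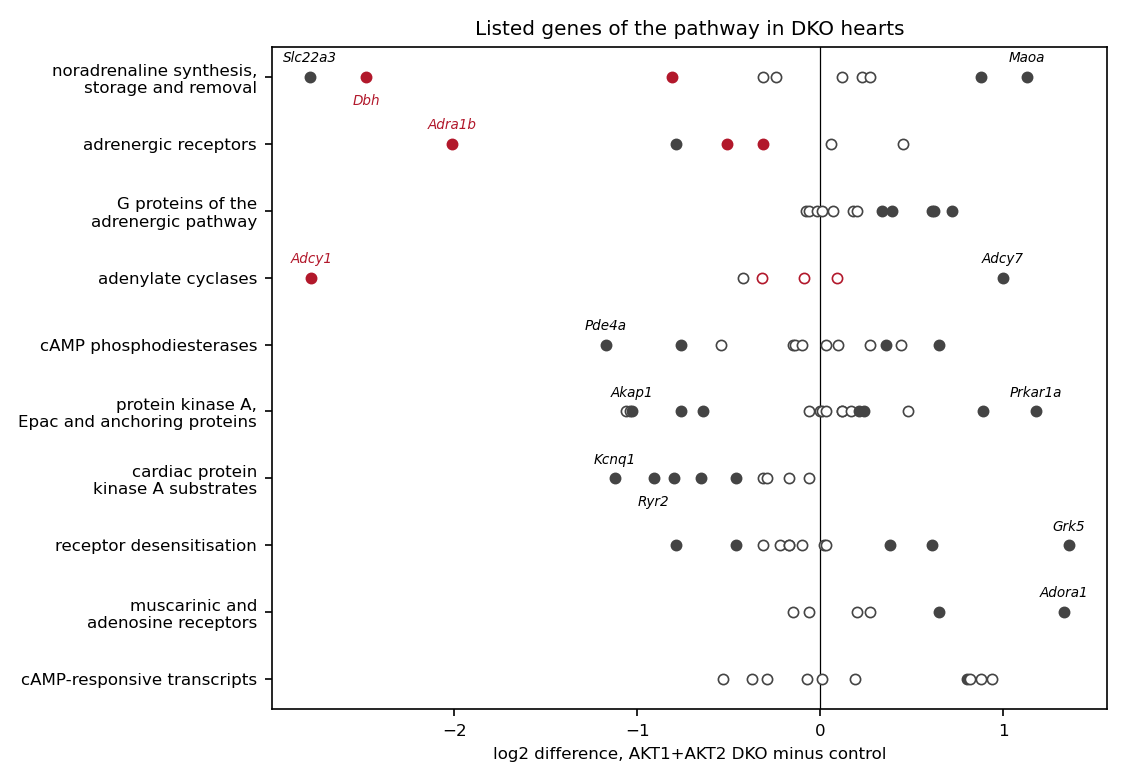
Log2 difference of DKO from control hearts (x axis) for the tested genes of 10 pathway lists (y axis), 1 point per gene; filled points were called in limma, red points are the 9 genes of this account, and called genes that differ by 0.9 or more are named. Slc22a3, Adcy1, Dbh and Adra1b lie at -2.01 or below, but Slc22a3 and Adcy1 are near background in DKO hearts and their order changes with the background correction.

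Some lists of cell markers shifted in DKO hearts against control, and others were mixed or held no called gene. Over all 13725 genes, 45.6% were called in this comparison, with 3354 called higher and 2903 called lower. List shares near these are no result about a list. All 7 ventricular cardiomyocyte markers fell, and their summed level, in units of the array's 75th percentile, was 2670 to 3090 in control and 1980 to 2360 in DKO hearts; the median of their log2 differences was -0.49. All 5 fibroblast markers rose (171 to 183 in controls, 264 to 309 in DKO hearts), and 3 of 5 macrophage markers did, 4 without DKO replicate 3 (21.3 to 23.9 against 25.4 to 35.1). Of 3 tested atrial markers 1 rose, Nppa by 2.49 on the log2 scale, and Nppa was also called in AKT1 KO hearts (1.47, adjusted p = 0.0168). The atrial sum was 89.6 to 140 in control, 263 to 354 in AKT1 KO, 84.1 to 227 in AKT2 KO and 547 to 701 in DKO hearts. Such sums of unlogged levels weigh the brightest markers most, and the atrial sum was nearly all Nppa. Its mean log2 level was 6.79 in control and 9.28 in DKO hearts, against 0.52 and 1.14 for Myl4. The atrial sum therefore repeats the Nppa result. The atrial markers Myl4 (0.63, adjusted p = 0.0537) and Myl7 (0.36, 0.707) were not called in DKO hearts, and Bmp10 was not above background on any array. Of 12 sympathetic neuron markers, Npy, Prph and Chga were not well above background on any array, while Th and Dbh were on all 16. Of the 8 tested, 3 rose in DKO hearts and 0 fell, with a median log2 difference of 0.09; without DKO replicate 3, 4 rose and 1 fell, with a median of 0.44. Chgb was above background on the 4 DKO arrays and on no other, and so passed the filter only through the group where it is high. It was at least 4.32-fold higher than in controls, taking each control array at its lowest signal above background (means -1.80 and -4.53). Uchl1 rose by 1.20 and Ngfr by 0.79 on the log2 scale. The summed level of the 12 markers was 30.1 to 34.2 in controls and 31 to 56.8 in DKO hearts. Of 4 tested Schwann cell markers 3 rose (1.19 to 1.57 against 1.57 to 2.59). Of 5 endothelial markers 1 rose and 1 fell, of 5 smooth muscle and pericyte markers 2 rose and 1 fell (3 and 1 without DKO replicate 3), and of 4 conduction and pacemaker markers 1 rose and 1 fell. Of 2 tested adipocyte markers 1 rose and 1 fell, and of 2 mesothelial markers 0 were called. The part of these shifts in the falls of Th, Dbh, the receptors and Adcy1 was not tested.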

How the data were processed

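Total RNA (100 ng per heart apex) was labelled with Cy3 and hybridised to Agilent mouse arrays, 1 array per mouse. Per the file headers, Agilent Feature Extraction 12.0.3.1 gave each spot an intensity, deposited with its background subtracted. The authors also deposited log2 values, normalized between arrays by a method not given in the sources used here and centred on each probe's median.

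Of 56605 probes (59305 spots), 118 that had every spot flagged as non-uniform on 1 or more arrays were left out. Each array's intensities were divided by their 75th percentile, converted to log2 and averaged per probe. A probe stayed in if some group had it well above background on its 4 arrays, and the brightest per symbol was used. R 4.3.3 and limma 3.58.1 fitted 1 mean per group to 16 arrays (12 residual and 2.54 prior degrees of freedom), checked on simulated data. Pathway genes named were up to 4 per list and comparison with control, by smallest adjusted p, plus the receptors and cyclases. Ddc, Slc18a2, Slc6a2, Gnas, Gnaq and Grk2 were named outside this rule. A few results are not reported here. RefSeq promoters were matched by symbol. The members, lists and tests were chosen with earlier results of these data known. Alternatives were other background corrections, scalings, filters, weights, blocks, slides alone and leaving out each array; list counts without DKO replicate 3 were added after seeing the data.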

Additional observations from a re-analysis of the deposited data

Results flagged for a closer look

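Of 36 groups of 4 arrays (9 genes in 4 groups), 2 held an array whose gap to the next exceeded Dixon's 95% limit; chance gives about 1 in 20. Adcy1 in AKT2 KO replicate 1 was at -1.85, with the others at -1.59 to -1.54. Adcy6 in DKO replicate 3 was at 1.50, with the others at 2.61 to 2.72, and this array also stood apart over all genes.

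For 4 genes the effect of deleting both kinases differed from the sum of the single effects in a test of that difference with limma. The departures were -3.95 for Adcy1 (-2.16 with normexp correction), -1.53 for Dbh, -1.16 for Adra1b and -0.95 for Th on the log2 scale. In the DKO group all 4 arrays of each of these genes lay below all control arrays, and Adcy1 was well above background on 1 of those 4.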

How the results depend on the processing

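Over 63 pairs of a member and a comparison and 1811 alternative values, 1682 kept direction and side of the threshold, 43 lost a call, 16 gained one, 0 called values reversed and 70 uncalled values changed sign. The falls of Dbh, Th, Adra1b and Adcy1 in DKO hearts against control were called in every alternative run that could test them; Adcy1 could not be tested where a probe had to be above background on all 16 arrays. With array weights 1 member was called in AKT1 KO against control (Adra1b), 1 in AKT2 KO against control (Dbh) and 1 between the single knockouts (Dbh). On slide 2 alone, with 2 arrays per group, 3 members were called against AKT1 KO, 3 against AKT2 KO and 0 for additivity. Over the alternatives, calls among all genes ranged from 4 to 822 in AKT1 KO and 3 to 93 in AKT2 KO against control. Between the single knockouts they ranged from 8 to 849. For DKO they ranged from 2716 to 8202 against AKT1 KO and 1903 to 7477 against AKT2 KO, and for additivity from 188 to 6154. Member counts in 1 such run are therefore no result about the members. Leaving out 1 array gave 0 to 1 called members in AKT1 KO against control (1 without DKO replicate 3), 0 to 1 in AKT2 KO (1 without AKT2 KO replicate 1), 4 to 7 in DKO against control, 4 to 6 against AKT1 KO, 4 to 5 against AKT2 KO and 4 to 5 for additivity. Over all genes, leaving out 1 array gave 5276 to 7020 calls in DKO against control and 5660 to 7365 against AKT1 KO. It gave 4887 to 6514 calls in DKO against AKT2 KO and 2890 to 4809 for additivity. In the single knockouts against control it gave 54 to 291 calls for AKT1 KO and 14 to 37 for AKT2 KO, the highest of each without DKO replicate 3. The causes were not tested. With the replicate number of the titles as a block, the counts stayed at 6, 6, 5 and 4 in the DKO comparisons and additivity. Of 24 correlations between arrays of the same number, 15 exceeded 0.1 (-0.35 to 0.392), and 9 of 16 arrays correlated best with their own number. These values do not exclude a structure shared by arrays of the same number. The titles name no pairs, and the main fit used none. No scaling moved the median of all genes by over 0.1. Precision is limited by the number of arrays and, for Adcy1 in DKO hearts, by signal near background.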
